A study of Mus musculus with 4 samples.

Results

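The genes described here encode the chains of the collagens, the main structural proteins of bone, cartilage, skin and the brain coverings. They were taken as all protein-coding genes of the count table whose symbol in the GENCODE annotation of GRCm38 (release M21) has the form of Col1a1, that is Col, a number, the letter a and a number. This gave 44 of 55487 gene IDs: 11 fibrillar chains, 6 chains of basement membrane collagen IV, 9 FACIT chains (fibril-associated collagens with interrupted helices), 3 network-forming chains, 4 transmembrane chains and 11 others (types VI, VII, XV, XVIII, XXVI and XXVIII). The classes follow the structure of the proteins and used no measured value. In all, 43 of the 44 had counts high enough to be tested. Col4a3, a chain of kidney and lung basement membranes, did not. It had 4 and 22 counts in frontal and 8 and 6 counts in parietal-interparietal libraries.

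The libraries were made from poly(A) RNA of the calvaria, the roof of the skull, of E14.5 mouse embryos. The frontal group has 2 libraries, and the parietal-interparietal group has 2 libraries that each hold both of those bones. No treatment or genetic change is labelled, and strain, sex, litter and embryos per library are not given. Since separate embryos are not stated for the libraries within a group, the p-values describe the variation among these samples alone, and that variation may be technical.

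A collagen molecule is a helix of intertwined chains, which may be identical or come from different genes. The chains are hydroxylated and folded in the endoplasmic reticulum, exported as procollagen, trimmed outside the cell and crosslinked by lysyl oxidases. Type I collagen makes up most of the organic matrix of bone, with smaller amounts of types III and V. Types II, IX and XI make up the fibrils of cartilage, and type IV the sheet under epithelia, blood vessels, muscle fibres and the outer surface of the brain.

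The libraries held between 24069177 and 35555013 gene counts. Ribosomal RNA rows took 9.15% to 10.8% of the frontal counts and 6.53% to 6.64% of the parietal-interparietal counts. Levels are given as CPM, counts per 1000000 scaled by edgeR's TMM factors, and a difference is called at an adjusted p under 0.05 in edgeR's quasi-likelihood test across 20947 genes. Over all tested genes 6.44% were called lower and 6.25% higher. The tissue label was checked against osteoblast markers, of which 11 of 13 were tested. Of these, 2 were called higher in frontal libraries, among them Ibsp, bone sialoprotein, and 0 lower. Runx2 (10.7 to 16.3 CPM over the 4 libraries) and Sp7 (9.93 to 12.9 CPM) were not called, Bglap and Dmp1 reached at most 0.903 CPM, and Mepe had 0 counts throughout. Markers of other tissues were present, among them 16 of skeletal muscle (12 called lower, 0 higher), 11 of the meninges (7 lower, 0 higher) and 18 of neural cells (4 lower, 7 higher). The neural list held the largest fold changes among the markers, in Neurod6 and Neurod2, factors of forebrain neurons. Neurod6 was at 48.3 and 42.6 CPM in frontal and 0.654 and 0.699 CPM in parietal-interparietal libraries (66.6-fold higher, adjusted p = 3.2e-08), and Neurod2 was 34.5-fold higher.

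Every collagen gene that passed the test was lower in the frontal than in the parietal-interparietal libraries. Of the 43 tested, 22 were called lower, 0 were called higher and 21 were not called, while 6.44% of all tested genes were called lower and 6.25% higher. At an unadjusted p under 0.05 in the same edgeR fit, 29 were lower and 0 higher. The differences were small: the called genes were 1.19-fold to 1.69-fold lower, with adjusted p-values between 0.000315 and 0.049. The log2 fold change was negative for 39 of 43 collagens (90.7%) and for 49.3% of all tested genes. The median log2 fold change (frontal minus parietal-interparietal) was −0.34 over the 43 genes, against 0.006 over all tested genes. Both frontal libraries lay below both parietal-interparietal libraries for 35 of the 43 genes (81.4%), and for 28.4% of all tested genes. Both lay above in 0 collagen genes and in 28.9% of all tested genes. Most collagen genes are abundant, and calls are more frequent among abundant genes. At a mean of 10 CPM or more, a limit chosen after the values were seen, 22 of 36 collagens (61.1%) and 10.5% of all genes were called lower. Both frontal libraries lay below for 32 of these 36 collagens and for 31.6% of all genes. In tissue libraries such as these, fewer cells of a type and less RNA per cell cannot be told apart.

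**Figure D1:**
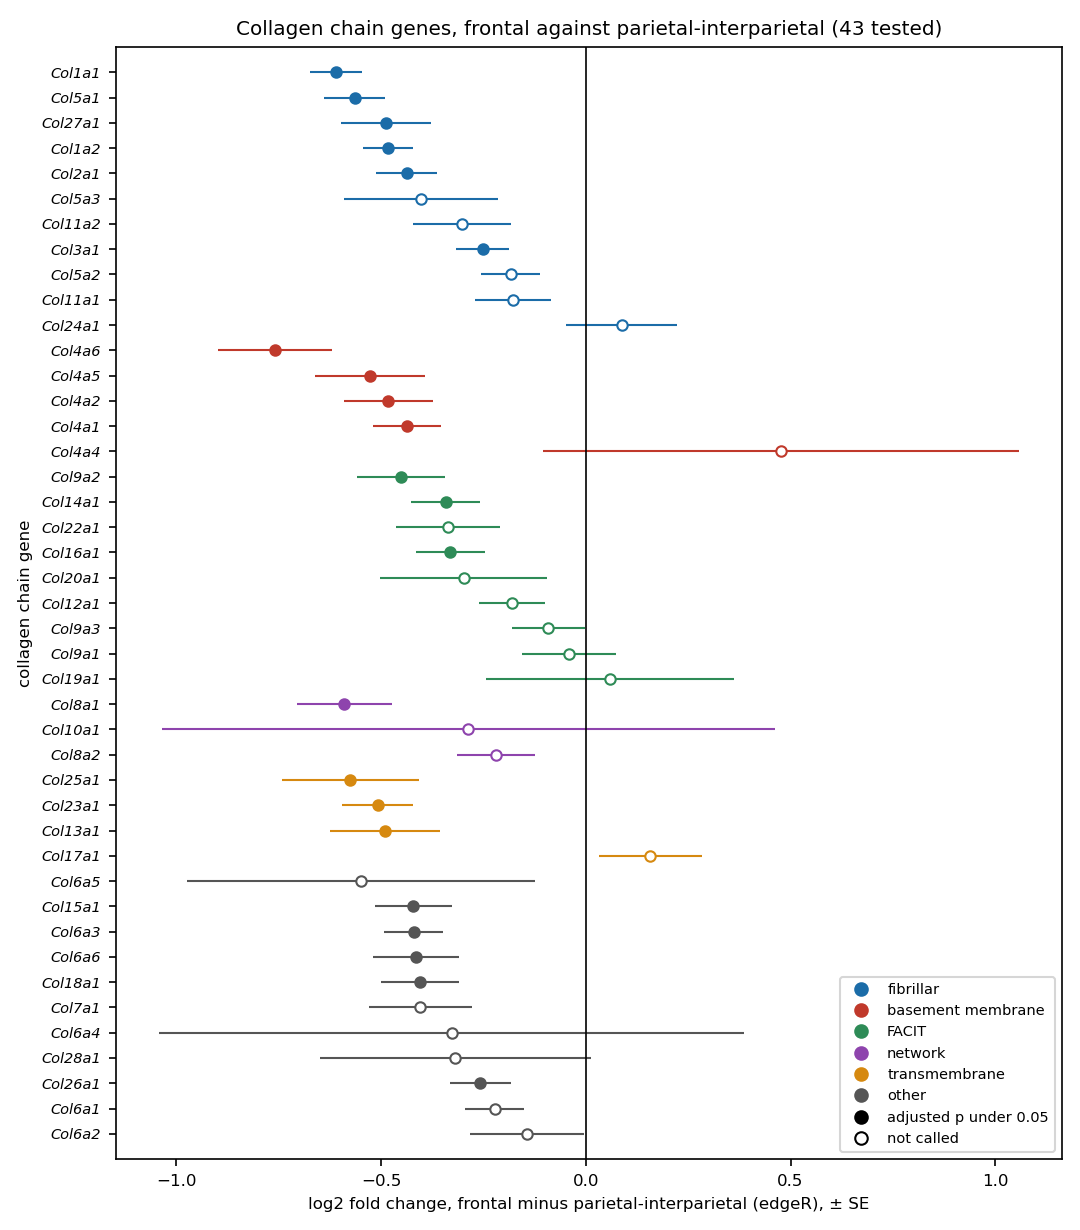
Log2 fold change (x axis, frontal minus parietal-interparietal, edgeR) with its standard error for each of the 43 tested collagen genes (y axis), coloured by class; filled points had an adjusted p under 0.05. All 22 filled points lie left of 0, and the 4 genes right of 0 (Col24a1, Col4a4, Col19a1 and Col17a1) have open points.

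How many genes were called depended on which libraries entered the test. Fits without a frontal library take their spread from the parietal-interparietal pair alone and call more of all genes. Their calls are thus no support for a difference in a single gene. Without frontal library 1, 32 collagens were called lower and 0 higher (12.2% and 12% of all genes). Without frontal library 2 it was 26 lower and 3 higher (17.0% and 15.6%), the 3 being Col17a1, Col4a4 and Col6a2. Without parietal-interparietal library 1 it was 5 lower and without library 2 it was 6, with 0 higher (2.03% and 1.96% of all genes lower, 1.87% and 1.88% higher). With both parietal-interparietal libraries added up to 1 sample it was 4 lower and 0 higher (1.76% and 1.62%). Those 4 were Col1a1, Col1a2, Col5a1 and Col4a6, which were called in each of the 13 alternatives run. Col8a1 was also called without parietal-interparietal library 1, and Col23a1 and Col25a1 without library 2. The other 15 called genes lost their call when either parietal-interparietal library was left out. The median over the collagens stayed between −0.44 and −0.31 in these settings. Other settings left the count of collagens between 20 and 24 lower and 0 higher. All genes were then called lower and higher in 6.56% and 6.25% (RLE size factors), 7.67% and 4.7% (no scaling beyond the total count), 7.39% and 6.56% (DESeq2), 5.34% and 5.56% (no filter), 9.67% and 8.53% (minimum count 50), 7.85% and 7.3% (halved counts) and 6.44% and 6.23% (ribosomal RNA rows left out).

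**Figure D2:**
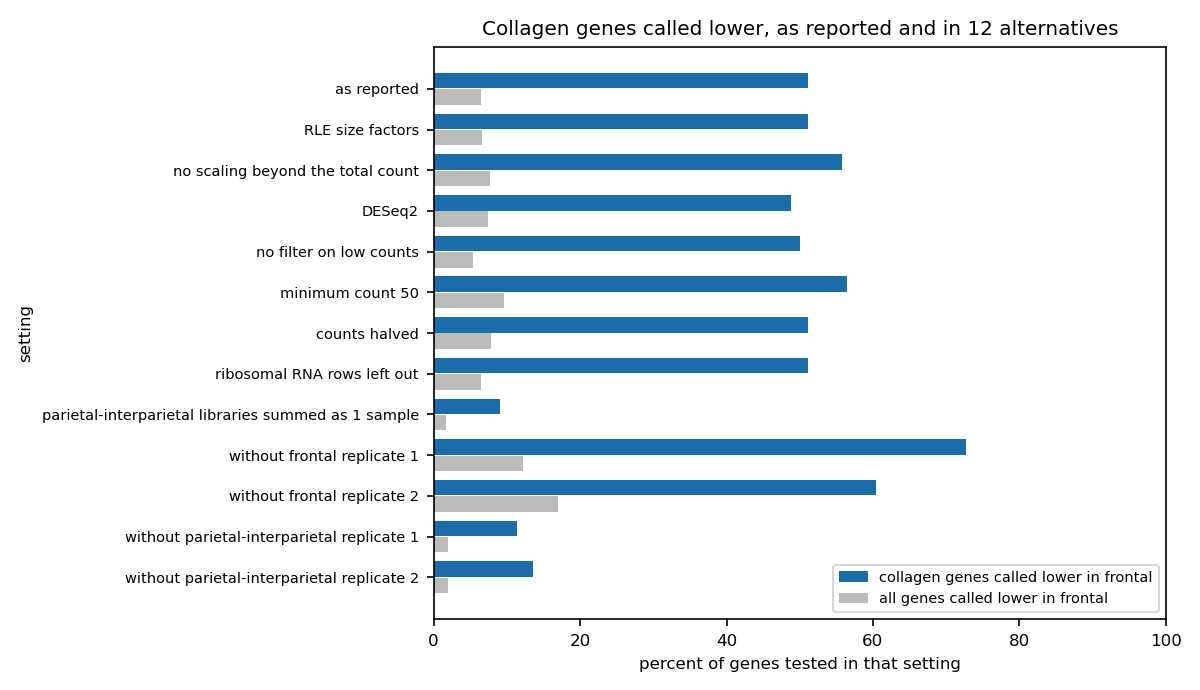
Percent of tested genes called lower in the frontal libraries (x axis) among collagen genes (blue) and among all genes (grey), as reported and in 12 alternatives (y axis). The collagen bar is the longer in every setting, and both bars are shortest where the parietal-interparietal group is reduced to 1 sample.

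Collagen genes together took 0.787% of all counts in frontal library 1 and 0.772% in frontal library 2, with 95% intervals by Wilson's method of 0.784 to 0.79 and 0.769 to 0.775. The parietal-interparietal libraries had 1.05% and 1.06%, each with an interval of 1.05 to 1.06. The 2 frontal values lay below both others. With the ribosomal RNA rows left out of the total, the shares were 0.866% ± 0.0233 in the frontal and 1.13% ± 0.0012 in the parietal-interparietal libraries (mean ± SD, n = 2 each, here and below). Col1a1, Col1a2 and Col3a1 made up 48.5% ± 2.04 and 50.2% ± 0.198 of the collagen counts. Per length of merged exons, fibrillar chains made up 54.4% and 57.4% of the frontal collagen signal, against 57.7% and 58.1% for parietal-interparietal. The share of FACIT chains was 9.58% ± 0.349 in frontal and 8.81% ± 0.0163 in parietal-interparietal libraries, and that of type IV chains 8.12% ± 0.654 and 8.59% ± 0.0389.

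**Figure D3:**
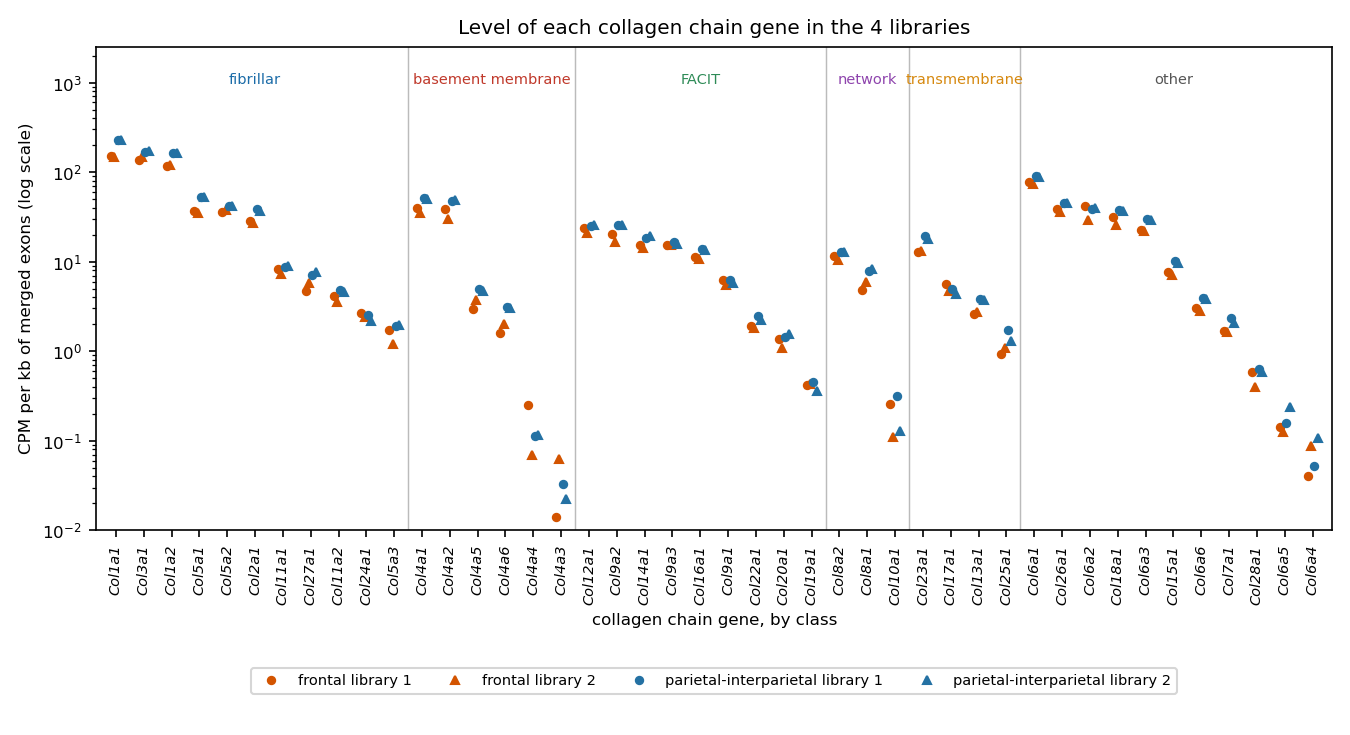
CPM per kb of merged exons (y axis, log scale) of all 44 collagen genes in each library, grouped by class and ordered by mean level within a class; orange marks frontal and blue parietal-interparietal libraries. Col1a1, Col3a1 and Col1a2 are the highest, and for most genes above 1 CPM per kb both blue points lie above both orange points.

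The bases before the start sites of 4 of these genes are shown as examples of windows with and without simple promoter motifs, from genes that were called lower in every alternative, called as reported or not called. They are the 150 bases before the RefSeq start (GRCm38.p6), chosen among windows with no annotated exon, 5′ to 3′ on the gene's own strand. Capitals mark a GC box, spelled GGGCGG, on either strand. They also mark the letters TATAAA on either strand, wherever they lie in the window. These letters stand here for a TATA box, a core promoter element bound by the general transcription machinery, whatever their distance from the start. The CCAAT box, named by its letters, was searched on both strands too.
Col5a1, chr2:27886275-27886424 (plus strand): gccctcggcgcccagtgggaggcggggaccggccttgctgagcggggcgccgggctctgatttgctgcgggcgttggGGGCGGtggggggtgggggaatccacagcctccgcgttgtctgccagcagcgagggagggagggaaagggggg
Col4a6, chrX:141474077-141474226 (minus strand): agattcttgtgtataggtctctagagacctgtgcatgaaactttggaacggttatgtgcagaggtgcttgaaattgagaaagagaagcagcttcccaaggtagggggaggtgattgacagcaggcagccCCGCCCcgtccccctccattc
Col3a1, chr1:45311388-45311537 (plus strand): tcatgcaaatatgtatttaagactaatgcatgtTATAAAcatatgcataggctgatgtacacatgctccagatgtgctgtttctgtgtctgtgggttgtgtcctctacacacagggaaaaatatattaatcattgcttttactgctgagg
Col24a1, chr3:145292322-145292471 (plus strand): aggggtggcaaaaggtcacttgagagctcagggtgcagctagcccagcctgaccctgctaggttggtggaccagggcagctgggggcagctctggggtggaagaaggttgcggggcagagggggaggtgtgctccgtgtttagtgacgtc
Col5a1 and Col4a6, called lower in each alternative, had a GC box that begins 73 and 21 bases before the start. Col3a1, called lower, had the letters TATAAA beginning 117 bases before it, which is a match of letters and not a located core promoter. Col24a1, not called, had none of these motifs. The pairing of motif and call in these examples was not general. Col11a1, Col11a2 and Col5a3, not called, each had 2 GC boxes. Col1a2, called in each alternative, had no GC box, and Col6a3, called lower, had none of the motifs. RefSeq windows matched 35 of the 44 genes, and Col1a1 was among those without one. A GC box was in 19 of the 38 collagen windows (some genes have several starts) and in 28.6% of all 32851 windows of the same length, a CCAAT box in 21.1% and 24.5%, and a TATA box in 10.5% and 7.57%. Counted by gene, a GC box was in 19 of the 35 collagen genes with a window and in 11 of the 18 called ones. These matches describe letters in a window and do not show a bound site.

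Among the fibrillar chains, which build the banded fibres of connective tissue, 6 of 11 were called lower (Col1a1, Col5a1, Col27a1, Col1a2, Col2a1 and Col3a1) and 0 higher. This compares with 6.44% and 6.25% of all tested genes. The class median was −0.40 log2 units. Col1a1 (ENSMUSG00000001506, chromosome 11, 94936224 to 94953042) encodes the more abundant chain of type I collagen and stood at 993 and 966 CPM in frontal and 1488 and 1501 CPM in parietal-interparietal libraries. The groups did not overlap, and each pair lay close together. The gene was 1.53-fold lower in frontal libraries (log2 fold change −0.61 ± 0.06 SE, edgeR adjusted p = 0.000315). Its partner chain Col1a2 (ENSMUSG00000029661, chromosome 6, 4504814 to 4541544) stood at 1459 and 1479 against 2059 and 2049 CPM, 1.40-fold lower (−0.48 ± 0.06, adjusted p = 0.0009). Both chains of type I collagen were thus lower in frontal libraries. Col3a1, which encodes the single chain of type III collagen of elastic and early connective tissue, was at 1353 and 1439 against 1651 and 1674 CPM. Its groups also did not overlap, but the difference was smaller, 1.19-fold (−0.25 ± 0.06, adjusted p = 0.0299).

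Type V collagen sits inside type I fibrils and limits their width. Col5a1 (ENSMUSG00000026837, chromosome 2, 27886425 to 28039514) was at 316 and 294 CPM in frontal and 451 and 452 CPM in parietal-interparietal libraries. All frontal values lay below, 1.48-fold on average (−0.56 ± 0.07, edgeR adjusted p = 0.00102). Its partner chain Col5a2 was at 341 and 360 against 397 and 398 CPM, which also did not overlap but did not pass the test (−0.18 ± 0.07, adjusted p = 0.13). Its log2 fold change was −0.14 without frontal library 1 and −0.23 without frontal library 2. The minor chain Col5a3 was at 11.8 and 8.11 against 12.96 and 13.3 CPM (−0.40 ± 0.19, adjusted p = 0.201). Its log2 fold change was −0.69 without frontal library 1 and −0.16 without frontal library 2.

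The cartilage fibril chains gave mixed calls. Col2a1 (ENSMUSG00000022483, chromosome 15, 97975602 to 98004695), the chain of type II collagen, was at 264 and 252 CPM in frontal and 356 and 343 CPM in parietal-interparietal libraries, with no overlap (1.35-fold lower, adjusted p = 0.00419). Its fibril partners Col11a1 and Col11a2 were not called (adjusted p = 0.247 and 0.13). With 1 library left out, their log2 fold changes ranged from −0.28 to −0.09 and from −0.43 to −0.19. Also not called were Col9a1 and Col9a3, at −0.04 ± 0.11 and −0.09 ± 0.09 log2 units. Col9a2 of the same type IX molecule was called lower, at 63.3 and 51.7 against 78.7 and 78.5 CPM (1.37-fold, adjusted p = 0.0217). Col10a1, the marker of hypertrophic cartilage, was under 1 CPM in every library (0.799, 0.34, 0.981 and 0.405). Among 11 other cartilage markers 2 were called lower, Acan, the aggrecan core protein, and Cnmd, chondromodulin, against 6.44% of all tested genes. Called higher were 2, the factors Sox5 and Sox6, which neural cells also express, against 6.25%. The summed level of the list was 213 to 228 CPM in frontal and 208 to 217 CPM in parietal-interparietal libraries. The part of cartilage content in the type II difference was not tested.

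Col27a1 was called lower and Col24a1 was not called. Col27a1, expressed in cartilage and other developing tissues, was at 61.2 and 75.8 against 92.7 and 99.4 CPM (1.40-fold lower, adjusted p = 0.017). Col24a1, known from developing bone, was at 20.3 and 18.3 against 19.6 and 16.7 CPM, so its groups overlapped (0.09 ± 0.14, adjusted p = 0.739). Its log2 fold change turned to −0.03 without parietal-interparietal library 2.

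Type IV collagen genes lie in pairs that face each other head to head, and the tested members of the first 2 pairs were all called lower. Of all tested genes 6.44% were called lower. Col4a1 and Col4a2, the ubiquitous chains of basement membranes, have annotated ends that overlap by 22 bases on chromosome 8. Col4a1 was at 297 and 261 against 382 and 373 CPM (1.35-fold lower, edgeR adjusted p = 0.00749). Col4a2 was at 258 and 200 against 313 and 326 CPM (1.40-fold lower, adjusted p = 0.0175), with a wider gap between its frontal libraries. In both genes the groups did not overlap.

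Col4a5 and Col4a6 lie 1308 bases apart on the X chromosome and belong to a more restricted type IV molecule of skin and smooth muscle basement membranes. Col4a6 (ENSMUSG00000031273, chromosome X, 141165403 to 141474076) had the largest fold change among the called collagens, at 12.9 and 15.9 CPM in frontal and 24.7 and 24.1 CPM in parietal-interparietal libraries. It was 1.69-fold lower (−0.76 ± 0.14, adjusted p = 0.00652). Col4a5 was at 19.7 and 25.3 against 33.1 and 31.9 CPM (1.44-fold lower, adjusted p = 0.0288). The remaining pair was scarce: Col4a4 was at 2.64 and 0.737 against 1.19 and 1.21 CPM, where frontal library 1 stood apart and the groups overlapped (adjusted p = 0.658). Without frontal library 1 its log2 fold change was −0.70, and without frontal library 2 it was 1.12.

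Partners of type IV collagen in the basement membrane were measured beside it. Of 15 tested, 5 were lower (Nid1, Nid2, Lama2, Lamc1 and Hspg2) and 0 higher, against 6.44% and 6.25% of all tested genes. Nid1, nidogen, which bridges laminin and type IV collagen, was at 146 and 150 against 226 and 214 CPM (1.48-fold lower, adjusted p = 0.00132). The laminin chains Lama2, of muscle, and Lamc1, of most laminins, were 1.46-fold and 1.39-fold lower, and Hspg2, perlecan, was 1.40-fold lower. The laminin chains Lama1, Lama5 and Lamb3 overlapped between the groups. Of 12 endothelial markers 1 was lower and 1 higher, near the shares over all genes. Of 10 pericyte and smooth muscle markers 3 were lower and 0 higher. Summed levels were 550 to 602 against 659 to 669 CPM for endothelium and 414 to 461 against 531 to 533 CPM for pericytes and smooth muscle, and 2023 to 2158 against 2751 to 2764 CPM for muscle. The part of these cells in the type IV difference was not tested.

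FACIT chains attach to the surface of fibrils and link them to other matrix. Of 9 tested, 3 were called lower and 0 higher (class median −0.30), against 6.44% and 6.25% of all tested genes. Col14a1, abundant where tissue bears load, was at 108 and 99.9 against 128 and 135 CPM (1.27-fold lower, adjusted p = 0.0253). Col16a1 was at 75.4 and 72.4 against 94.3 and 91.6 CPM (1.26-fold lower, adjusted p = 0.0289). Neither overlapped between groups. Col12a1, the most abundant member and a component of dense connective tissue, was at 358 and 318 against 377 and 389 CPM. It did not pass the test (adjusted p = 0.181). Its log2 fold change was −0.27 without frontal library 1 and −0.11 without frontal library 2. Col22a1, of muscle-tendon junctions, Col20a1 and Col19a1 were also not called (−0.34 ± 0.13, −0.30 ± 0.20 and 0.06 ± 0.30). With 1 library left out, the log2 fold change of Col22a1 ranged from −0.42 to −0.25.

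Of the network-forming chains, Col8a1 (ENSMUSG00000068196, chromosome 16, 57624258 to 57754737) was called lower. Type VIII collagen forms open lattices in vessel walls and under the corneal endothelium. Col8a1 was at 37.6 and 46.7 CPM in frontal and 61.5 and 65.4 CPM in parietal-interparietal libraries, without overlap (−0.59 ± 0.12, adjusted p = 0.00887). Its partner chain Col8a2 was at 52.0 and 47.3 against 58.1 and 57.3 CPM and was not called (adjusted p = 0.17). With 1 library left out, the log2 fold change of Col8a2 ranged from −0.29 to −0.16.

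The transmembrane collagens are membrane proteins with a collagenous outer part. Of 4 tested, 3 were called lower. Col23a1 was at 73.8 and 75.6 against 111 and 102 CPM (1.42-fold, adjusted p = 0.00448). Col25a1, expressed in neurons and needed for motor innervation of muscle, was at 11.9 and 14.2 against 22.3 and 16.7 CPM (1.49-fold, adjusted p = 0.049). Col13a1, of the neuromuscular junction, was at 12.02 and 12.6 against 17.5 and 17.2 CPM (1.41-fold, adjusted p = 0.0379). No groups overlapped among these 3. In DESeq2 the calls of Col25a1 and Col13a1 were lost (adjusted p = 0.0549 and 0.0844). Col17a1, the hemidesmosome collagen that anchors epidermis, was at 34.2 and 28.5 against 29.8 and 26.4 CPM, with overlapping groups and a positive log2 fold change (0.16 ± 0.13, adjusted p = 0.468). With 1 library left out, its log2 fold change ranged from 0.02 to 0.28. Beside it, of 13 surface epithelium markers 2 were higher and 2 lower, against 6.25% and 6.44% of all tested genes. Their summed levels were 953 to 1017 and 1054 to 1064 CPM. Col7a1, whose protein anchors the epidermal basement membrane, was at 17.2 and 16.96 against 24.03 and 21.2 CPM (−0.40 ± 0.13, adjusted p = 0.0631). It was called lower with no scaling beyond the total count (−0.46). Its log2 fold change was −0.41 without frontal library 1 and −0.40 without frontal library 2.

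Type VI collagen forms beaded filaments around cells, as a molecule of Col6a1, Col6a2 and one of several longer chains. The longer chains Col6a3 and Col6a6 were called lower, Col6a3 (ENSMUSG00000048126, chromosome 1, 90765923 to 90843971) at 270 and 260 against 357 and 351 CPM (1.34-fold, adjusted p = 0.00467) and Col6a6 at 27.5 and 26.0 against 36.4 and 35.0 CPM (1.33-fold, adjusted p = 0.0283). The groups did not overlap in either. Col6a1 was at 344 and 324 against 393 and 387 CPM (adjusted p = 0.0729), and was called lower with no scaling beyond the total count (−0.28). Its log2 fold change was −0.26 without frontal library 1 and −0.19 without frontal library 2. Col6a2 was at 352 and 241 against 327 and 328 CPM, so that the frontal libraries lay on either side of the others (adjusted p = 0.561). Its log2 fold change was −0.44 without frontal library 1 and 0.09 without frontal library 2. Col6a4 and Col6a5 reached at most 0.92 and 2.25 CPM and were not called.

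Col15a1 and Col18a1 encode the multiplexins, basement membrane collagens whose ends are cut off as endostatin and its relative. Col15a1 was at 48.6 and 45.5 against 65.0 and 60.9 CPM (1.34-fold lower, adjusted p = 0.0166) and Col18a1 at 219 and 180 against 268 and 261 CPM (1.32-fold lower, adjusted p = 0.0212). Neither overlapped. Col26a1 was at 319 and 294 against 366 and 367 CPM (1.20-fold lower, adjusted p = 0.0487), and Col28a1, known from nerve, reached at most 3.07 CPM and was not called.

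Levels of chains that share a molecule or a fibril were compared as ratios. Ratios of CPM per kb within a library do not depend on the scaling, and they are given by library, with no test run on them. The ratio of Col1a1 to Col1a2 was 1.26 ± 0.0375 in frontal and 1.38 ± 0.0129 in parietal-interparietal libraries. Its absolute size depends on the length used, since with the longest transcript it was 0.601 ± 0.0179 and 0.656 ± 0.00613. The ratio of Col5a1 to Col5a2 was 1.05 and 0.923 in frontal and 1.28 in both other libraries. Col3a1 to Col1a1 was 0.911 and 0.996 against 0.742 and 0.746, so type III was the larger relative to type I in the frontal libraries. The ratio of Col9a1 to Col9a2 was 0.305 and 0.326 against 0.244 and 0.229, and that of Col4a5 to Col4a6 1.82 and 1.89 against 1.59 and 1.57. In each of these 5 pairs the groups did not overlap. The same held for Col6a3 to Col6a1, Col8a1 to Col8a2, Col9a3 to Col9a2, Col11a1 to Col11a2 and Col2a1 to Col1a1. Such separation is frequent with 2 libraries per group: over all tested genes the frontal CPM lay below in 28.4% and above in 28.9%. The ratios of Col4a1 to Col4a2 (1.02 and 1.16 against 1.08 and 1.02) and Col6a1 to Col6a2 (1.86 and 2.56 against 2.29 and 2.24) overlapped. That of Col5a3 to Col5a2 overlapped too.

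**Figure D4:**
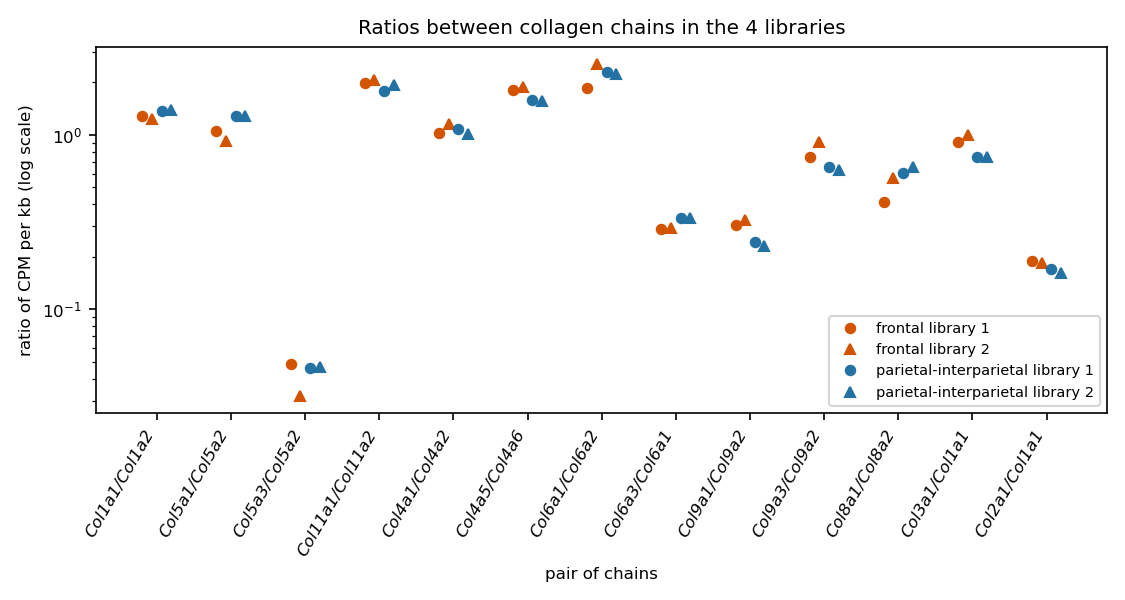
Ratio of CPM per kb of merged exons between chains (y axis, log scale) for 13 pairs of collagen genes (x axis) in each of the 4 libraries; orange marks frontal and blue parietal-interparietal libraries. The groups are apart for most pairs, among them Col5a1/Col5a2, Col3a1/Col1a1 and Col9a1/Col9a2, and overlap for Col4a1/Col4a2, Col6a1/Col6a2 and Col5a3/Col5a2.

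Genes that fold, export, crosslink or bind collagen were counted in 7 lists. Of 84 tested partner genes 23 were lower, 2 higher and 59 not called (against 6.44% and 6.25% of all genes), with a median of −0.16. Of 20 genes for folding and modification 3 were lower and 0 higher. The 3 were P4ha3, a subunit of prolyl hydroxylase (1.38-fold, adjusted p = 0.0101), Plod2, a lysyl hydroxylase (1.36-fold), and Creb3l1, a factor that drives secretory genes of bone cells (1.39-fold). The list's median was −0.03. Serpinh1, the collagen chaperone HSP47, was at 1027 and 1102 against 1065 and 1054 CPM (adjusted p = 0.965), and P4hb, protein disulfide isomerase, at 672 and 607 against 559 and 579 CPM (adjusted p = 0.181). The log2 fold change of P4hb was 0.09 without frontal library 1 and 0.23 without frontal library 2. The summed level of the list overlapped between groups, at 2566 to 2626 and 2558 to 2582 CPM. Serpinh1, P4hb and the uncalled genes named in the next paragraph were chosen after their values were seen.

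Export and processing genes were mostly not called. The counts in this paragraph stand beside 6.44% of all tested genes called lower and 6.25% higher. No gene of the export, processing, crosslinking and fibril-binding lists was called higher. Of 10 export genes 2 were lower, Sec24d of the COPII coat (1.40-fold) and Trappc2, a tether needed for procollagen export (1.92-fold, adjusted p = 0.00488). Of 9 propeptide processing genes, Pcolce, which enhances removal of the propeptide, was lower (1.31-fold, adjusted p = 0.00997). Of 5 crosslinking enzymes, Loxl2 and Lox were lower, Loxl2 at 86.0 and 87.4 against 119 and 127 CPM (adjusted p = 0.00372) and Lox at 68.7 and 90.7 against 107 and 110 CPM (adjusted p = 0.0387). Of 15 proteins that bind fibrils 7 were lower. Those of smallest p were Bgn, biglycan (1.38-fold), Cthrc1, a secreted protein induced in matrix-forming cells (55.6 and 82.4 against 131 and 138 CPM, adjusted p = 0.0027), Fmod, fibromodulin (1.52-fold), and Kera, keratocan (1.97-fold), and the others were Fn1, Dpt and Tnxb. Other abundant binders were not called. Sparc was at 1210 and 1273 against 1200 and 1163 CPM, and Postn at 521 and 559 against 557 and 552 CPM. Dcn was at 263 and 256 against 248.7 and 257 CPM, and Lum at 190 and 250 against 187 and 195 CPM. With 1 library left out, log2 fold changes ranged from 0.03 to 0.11 (Sparc), −0.10 to 0.01 (Postn), 0.01 to 0.06 (Dcn) and −0.02 to 0.39 (Lum).

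Collagen receptors were called in both directions. Of 10 tested, Ddr2, Itgb1 and Itga1 were lower, Ddr1 and Adgrg1 higher and 5 not called, with a list median of −0.06. Of all tested genes 6.44% were lower and 6.25% higher. Ddr2, the collagen receptor kinase of mesenchyme, was at 147 and 146 against 186 and 188 CPM (1.28-fold lower, adjusted p = 0.0139). Its relative Ddr1, of epithelia and neural cells, was at 90.2 and 75.9 against 57.8 and 66.4 CPM (1.34-fold higher, adjusted p = 0.0332). Adgrg1, a receptor for type III collagen on neural progenitors, was at 84.5 and 67.0 against 43.9 and 43.2 CPM (1.74-fold higher, adjusted p = 0.00191). Adgrg1 was called in each alternative, and Ddr1 lost its call without parietal-interparietal library 1 (log2 fold change 0.32), without library 2 (0.52), with both added up (0.41) and with no scaling beyond the total count (0.37). Ddr2 and Itgb1 lost their calls without either parietal-interparietal library and with both added up (−0.36 to −0.35 and −0.35 to −0.34). Itga1 lost its call in those settings (−0.56 to −0.33) and in DESeq2 (adjusted p = 0.0659). Of all partner genes named as called, Adgrg1, Cthrc1, Kera and Trappc2 kept their call in each alternative, and every other lost it without at least 1 of the parietal-interparietal libraries.

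Markers of cell types that make collagen, and of others in the tissue, were counted in the same fit. Of 7 mesenchyme markers 5 were lower and 0 higher, with summed levels of 1095 to 1110 CPM in frontal and 1486 to 1499 CPM in parietal-interparietal libraries. Pdgfra, the platelet-derived growth factor receptor of mesenchyme, was 1.73-fold lower (adjusted p = 0.000187). The summed level of the meninges list was 427 to 428 against 824 to 828 CPM, and Ptgds of that list was 2.77-fold lower (adjusted p = 2.25e-05). Of 4 tendon and fascia markers 3 were lower (83.1 to 106 against 116 to 124 CPM), and of 8 Schwann cell markers 3 were lower (130 to 152 against 197 to 202 CPM). Of 9 macrophage markers 2 were lower, of 9 red cell markers 6 and of 3 osteoclast markers 1, with 0 higher in each, where 6.44% of all tested genes were lower and 6.25% higher. Of 18 neural markers 4 were lower and 7 higher, with summed levels of 1414 to 1431 against 1389 to 1399 CPM. The osteoblast list had 2 of 11 higher and 0 lower, with summed levels of 160 to 179 against 104 to 108 CPM. Ibsp was the largest part of these sums, at 81.1 and 92.3 against 40.8 and 40.6 CPM. The log2 fold change was positive for 8 of the 11 and negative for 3, among them Sp7. The part of these cell types in the collagen differences was not tested.

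**Figure D5:**
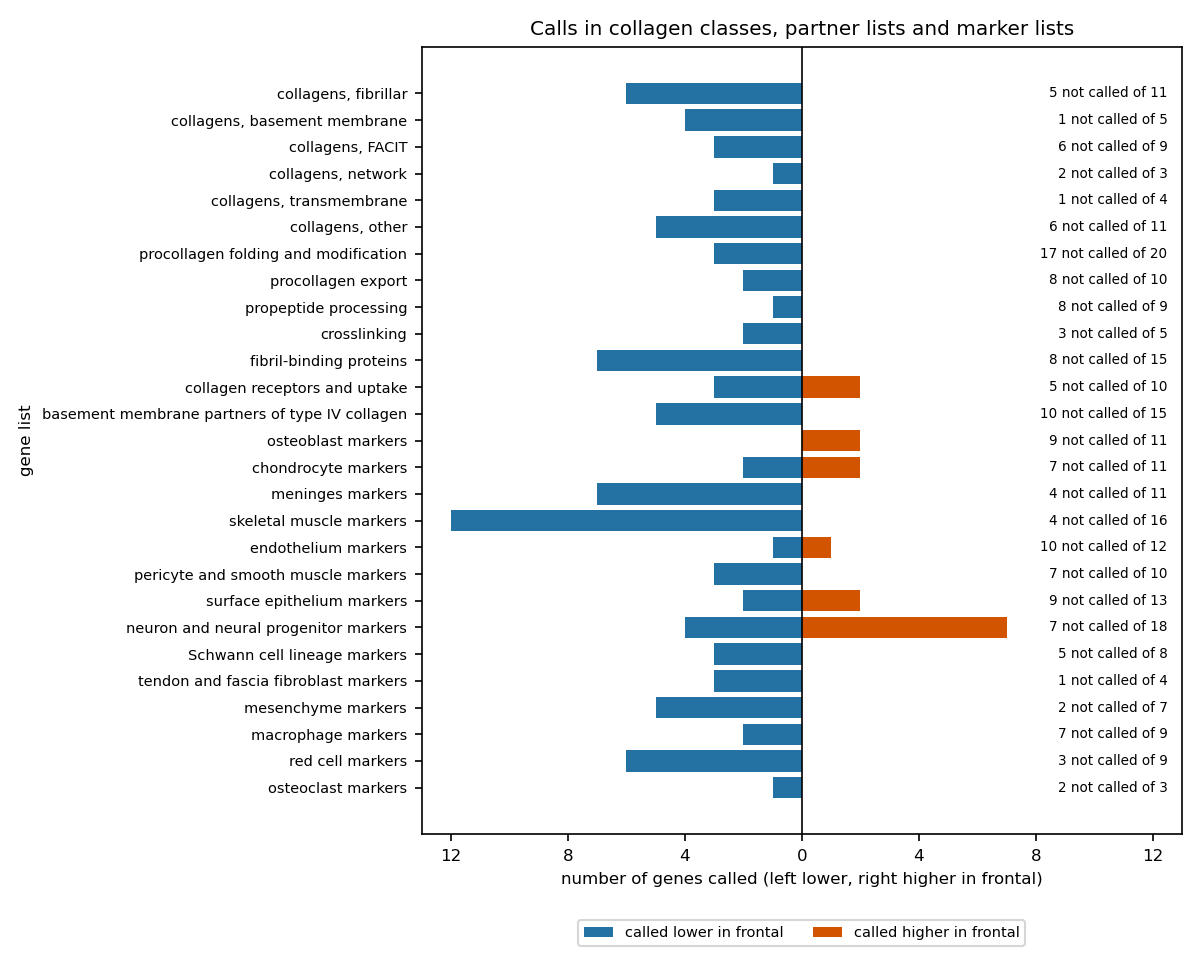
Number of genes called lower (left, blue) and higher (right, orange) in the frontal libraries (x axis) in each collagen class, collagen partner list and cell type marker list (y axis), with the number not called at the right. Every collagen class has calls to the left and none to the right, while the osteoblast markers have 2 to the right and none to the left.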

How the data were processed

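Poly(A) RNA of 2 frontal and 2 parietal-interparietal libraries was measured. The authors deposited raw counts per gene, not normalized. The tools named, per the submitters' processing notes, are HISAT2 2.1.0, Trim Galore 0.6.7 and featureCounts 2.0.1, with build GRCm38. Their settings, the annotation release, strand use and multi-mapping are in no source used here. Without a stated strand, reads shared with an overlapping gene cannot be told apart: 6.07% of the exon length of Col9a3 and under 3.5% of that of every other tested collagen overlap another gene. No sample column was left unmapped. Of 55487 IDs, 55227 matched GENCODE M21 and 260 did not.

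Counts were filtered with filterByExpr (minimum count 10), scaled by TMM and compared by a two-sided edgeR 4.0.16 test in R 4.3.3 (glmQLFit and glmQLFTest, group as the only term, 2 residual degrees of freedom), with Benjamini-Hochberg adjustment over 20947 genes and a threshold of 0.05. CPM are counts over the total count times the TMM factor. The floor of 3 counts equals 0.104, 0.0851, 0.123 and 0.11 CPM in frontal libraries 1 and 2 and parietal-interparietal libraries 1 and 2. Standard errors are the log2 fold change over the square root of F. Levels per kb use merged GENCODE exons. Wilson intervals and that floor cover counting error only. Overlap between groups was read from the CPM. DESeq2 1.42.0 was an alternative, and figures used matplotlib 3.10.9 in Python 3.11.15. The fit was also run on simulated counts with dispersions estimated from these libraries. Of genes changed by 0.5, 1 and 2 log2 units it recovered 25%, 60.7% and 80.9%, and it called 4 unchanged genes. A gene that was not called may thus still differ. Alternatives changed the scaling, filter, tool, counts or samples. Halved counts and other sets of samples also changed which genes passed the filter, and DESeq2 used its own size factors and filter.

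The members and lists were chosen with earlier results of these data known. The text names all called collagens, the 2 highest of each class, the other members by their values, and up to 4 called partners per list by smallest p. Nid2, Itga1, Fn1, Dpt, Tnxb, Lama1, Lama5, Lamb3 and the marker genes named singly were picked with their values in view. Neurod2, Neurod6 and the laminin chains that overlapped were not followed through the alternatives. Values of some genes are not given singly.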

Additional observations from a re-analysis of the deposited data

How the results depend on the processing

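Called collagens kept their direction in the 13 alternatives. Collagens called lower in frontal numbered 22, and 20 to 24 under RLE size factors, no scaling beyond the total count, DESeq2, no filter, a minimum count of 50, halved counts, ribosomal RNA rows left out and the replicate block. Halved counts were run because even counts made up 68.3% to 74.4% of counts from 1 to 20, as counting both mates of a pair would give. Adding up the parietal-interparietal libraries to 1 sample gave 4 collagens lower, 4 partner genes lower and 1 higher, and 412 genes in all lower and 379 higher. With no scaling beyond the total count 1 partner gene was called higher, and 38% of all calls were higher, against 49.3% with TMM. The share of counts on collagens was 0.866% in frontal and 1.13% in parietal-interparietal libraries without ribosomal RNA rows.

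With 1 library left out, the lone sample is assumed to vary like the other group. Collagens called lower then ranged from 5 to 32 and higher from 0 to 3, partner genes lower from 4 to 36 and higher from 1 to 11, and all genes lower from 442 to 3796 and higher from 423 to 3483. The fits without a frontal library take their spread from the parietal-interparietal pair alone.

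The replicate block gave 20 collagens called lower, against 22, and called 8.13% of all genes lower and 7.65% higher, with Col3a1 and Col26a1 losing their call. The labels share only a number: deviations of same-numbered libraries correlated at 0.0179 across genes.

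Log2 fold changes turned sign in 17 cases, all of genes not called as reported, and the cause was not tested. Without 1 library, values ranged from −1.01 to 0.477 (Col10a1), from −0.0946 to 0.219 (Col19a1), from −0.0274 to 0.204 (Col24a1), from −0.698 to 1.12 (Col4a4), from −0.441 to 0.0947 (Col6a2), from −0.987 to 0.274 (Col6a4), from −0.14 to 0.0447 (Col9a1), from −0.0544 to 0.0584 (Serpinh1), from −0.099 to 0.0131 (Postn) and from −0.0154 to 0.388 (Lum). With no scaling beyond the total count Serpinh1 was at −0.0445 and Dcn at −0.0149, and in the fit on the added-up libraries Serpinh1 was at −0.0002. At these depths, genes at or under about 1 CPM such as Col10a1 and Col6a4 had standard errors of 0.748 and 0.715.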
